A study of Mus musculus with 2 samples.

Results

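The USF and MiT transcription factor genes are 7 genes, Usf1, Usf2, Usf3, Mitf, Tfe3, Tfeb and Tfec, taken by name from the 21268 protein-coding genes on chromosomes that carried USF1 regions. The genes were taken by family name and not by a measured value, but with earlier results of these data known. The study mapped USF1 binding by ChIP-seq in the mouse line CH12.LX, derived from a B-cell lymphoma of strain B10.H-2aH-4bp/Wts, with no treatment named in the labels and the age given as unknown. All samples form 1 group of 2 biological replicates, and no other condition was compared. The sequenced possible controls that the labels mention were not used here. RNA was not measured, so no value here is an expression level. Each signal is that of a listed ChIP-seq region, which in the authors' relaxed list of peaks and background need not be bound. The scale of that signal is not given in the sources used here and the read depth behind it is unknown, so levels were ranked only within 1 list. Where the replicates' own lists are set side by side, the ratio is read only against the same ratio over the optimal regions. For each gene, every summit (the position of highest signal in a region) inside the gene or within 5 kb of an annotated start was taken.

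USF1 and USF2 are basic helix-loop-helix leucine zipper (bHLH-ZIP) proteins that bind as dimers, commonly USF1 with USF2, to the E-box CACGTG and more weakly to variants such as CACATG. USF3 is a larger and less studied relative. MITF, TFEB, TFE3 and TFEC form the MiT family, which dimerise with one another and bind E-boxes that include CACGTG; TFEB and TFE3 are known for switching on lysosome and autophagy genes, MITF for pigment cell and osteoclast genes. In nutrient-fed cells MiT proteins are phosphorylated and held in the cytoplasm through mTORC1, the Rag GTPases and folliculin, and calcineurin removes the phosphates.

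The sequences at the main regions of Usf2, Mitf and Tfeb are given first, because the results turn on which motifs they hold. The Tfeb region is from the relaxed list and was found in replicate 2 alone. At Usf2 the strongest peak of the mm9 list lay upstream of the gene, and the 30 bases of mm9 chr7:31741911-31741940 on the gene's strand are shown with CACATG in capitals. At Mitf a weaker peak lay over the 30 bases of mm9 chr6:97755838-97755867, shown with CATGTG in capitals, which is CACATG read on the other strand.
Usf2: gcatctcctcctCACATGaccccactgttt
Mitf: ccattcttcagtCATGTGtgtcctgaggac
The 101 bases around the strongest Mitf summit, mm10 chr6:97806874-97806974, ended 28 bp before the gene, and those around the strongest Tfeb summit, mm10 chr17:47736897-47736997, ended 40 bp before it. Both are printed on the gene's strand from RefSeq promoter sequences of GRCm38.p6, with capitals for ACTACANNTCCC on either strand. Between the windows, 6 strings of 12 bases matched at 10 positions, with N where they differ, and ACTACANNTCCC is the one found in most mm9 peaks, so it was chosen after these sequences had been seen.
Mitf: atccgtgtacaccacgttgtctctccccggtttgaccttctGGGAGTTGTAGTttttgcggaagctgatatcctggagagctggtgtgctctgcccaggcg
Tfeb: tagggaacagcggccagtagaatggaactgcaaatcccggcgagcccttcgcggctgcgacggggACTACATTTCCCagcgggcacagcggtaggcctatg
Neither window holds CACGTG or CACATG.

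Of the 7 genes, Usf2 and Mitf had a summit of the optimal list, the authors' list of 8108 reproducible mm10 regions, and Usf1, Usf3, Tfe3, Tfeb and Tfec had none. The 2 of 7 genes called compare with 22.8% of all genes by the same rule. Both genes also had an optimal summit within 1 kb of a start, against 12.6% of all genes. The conservative list, a stricter set of 7356 regions, gave the same 2 genes, against 21.4% of all genes by the wider rule and 11.9% within 1 kb. The mm9 list of 10624 peaks gave Usf2 and Mitf again, against 26.2% of all mm9 genes by the wider rule and 14.9% within 1 kb. With 7 genes, a count of 2 is close to the background by the wider rule, and nothing is read from it about the family.

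**Figure D1:**
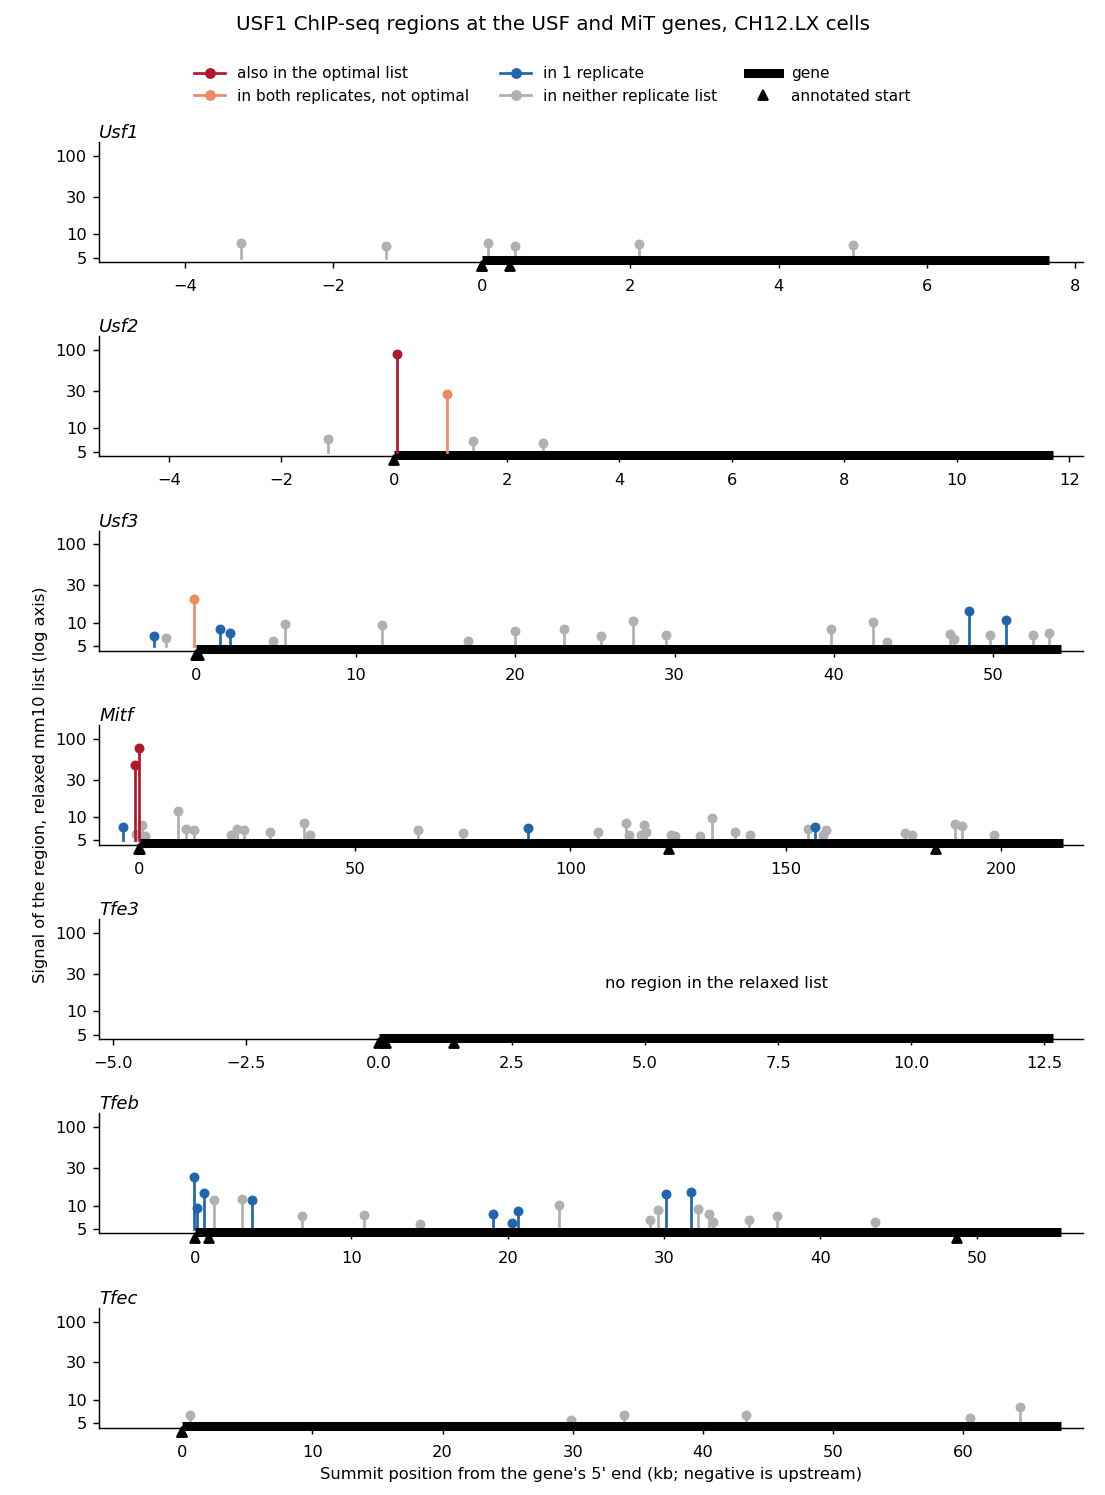
Signal of each region of the relaxed mm10 list (vertical log axis, the authors' scale) at the 7 genes, against the position of its summit from the gene's 5′ end (horizontal axis, kb; negative is upstream). Red regions were also optimal, orange ones were found in both replicates' own lists but not optimal, blue ones in 1 and grey ones in neither; the tall regions lie at the 5′ ends of Usf2 (89.4) and Mitf (75.0 and 45.8), and Tfe3 has none.

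Usf1, which encodes the precipitated factor, had no optimal, conservative or mm9 summit. The gene spans mm10 chr1:171411307-171418954 on the plus strand. The relaxed list, which holds 300000 regions of peaks and background, had 6 regions there, with signals of 6.997 to 7.78 beside a list median of 7.01. None of the 6 overlapped a region in either replicate's own list. The nearest optimal summit, with a signal of 93.4, lay 22.7 kb upstream of Usf1 and 327 bp from a start of Arhgap30. Genes within 1.2-fold of the length of Usf1 had a median of 3 relaxed regions.

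Usf2 encodes the usual dimer partner of USF1 and spans mm10 chr7:30945248-30956951 on the minus strand. Its optimal region, chr7:30956744-30957043, had a signal of 89.4 in the optimal list, 40.4 in replicate 1 and 49.4 in replicate 2. The summit lay at the start of the gene, 57 bp downstream of the RefSeq 5′ end, and in mm9 the peak summit lay 81 bp upstream of the first annotated start. With rank 3352 of 8108, this region was above the list median of 72.25. Among the 2681 genes with an optimal summit within 1 kb, the strongest such summit of each gene had a median of 131, and 60% had a higher signal than Usf2. The nearest start of another gene was 12865 bp away in mm10 (Hamp, which encodes the iron hormone hepcidin), and 4735 bp away in the mm9 annotation (Lsr, a lipoprotein receptor gene).

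A second Usf2 region, chr7:30955855-30956154, lay 946 bp downstream of the 5′ end and was not in the optimal list. Its signal was 27.7 in the relaxed list, 8.22 in replicate 1 and 21.7 in replicate 2. Of the optimal regions, 1.27% (103 of 8108) had a lower signal. The mm9 list did hold it as a peak, with a signal of 32.3 and rank 9599 of 10624, and its summit lay in an intron, 99 bp upstream of the start of the annotated transcript Usf2-008. The Usf2 summits were 889 bp apart in mm10 and 879 bp apart in mm9.

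Usf3, on the plus strand of mm10 chr16:44173236-44227465, had no optimal summit, but the relaxed list placed its strongest region at the promoter. That region, chr16:44172939-44173238, had a signal of 19.8 in the relaxed list, 8.97 in replicate 1 and 10.4 in replicate 2, with its summit 147 bp upstream of the 5′ end. It was found in both replicates, as were 16948 of the 300000 relaxed regions (5.65%). Only 0.74% of optimal regions had a lower signal. A further region 48444 bp downstream had a signal of 14.2 and was found in replicate 2 alone, at 11.3. The nearest optimal summit was 33.8 kb upstream of Usf3, with a signal of 274, and lay 143 bp from a start of Atp6v1a, which encodes a subunit of the lysosomal proton pump.

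Mitf was the only MiT gene with optimal summits, and both lay upstream of its 5′-most start. The gene spans mm10 chr6:97807002-98021360 on the plus strand and has several alternative starts, of which the 5′-most is known for the widely used A form and the 3′-most for the melanocyte form. The promoter region, chr6:97806774-97807073, had a signal of 75.0 in the optimal list, 27.7 in replicate 1 and 46.7 in replicate 2, with its summit 78 bp upstream of the 5′ end. It ranked 3896 of 8108, and 65.5% of the genes with an optimal summit within 1 kb had a higher signal. The upstream region, chr6:97805716-97806015, had a signal of 45.8 in the optimal list, 20.2 in replicate 1 and 26.0 in replicate 2, with its summit 1136 bp upstream and rank 6093. The promoter region thus stood near the middle of the optimal list and the upstream region in its weaker part. Their summits were 1058 bp apart in mm10 and 1037 bp apart in mm9, where the signals were 81.5 and 45.5.

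The second RefSeq start of Mitf, at 97807058, lay 134 bp downstream of the promoter summit. No such signal was seen at the RefSeq starts further inside the gene. The nearest relaxed region to the start at 97929817 was 565 bp away with a signal of 5.93, and no relaxed summit lay within 1 kb of the 3′-most start at 97991783, the nearest being 4587 bp away at 8.24. Mitf had 39 relaxed regions in all, of which 2 were found in both replicates, 3 in 1 and 34 in neither. Genes of similar length had a median of 28.

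Tfeb, which encodes the best known activator of lysosome genes, had no optimal summit. Its strongest relaxed region, chr17:47736797-47737096 of mm10, had a signal of 23.1 with its summit 90 bp upstream of the 5′ end of the gene (chr17:47737037-47792416, plus strand). Replicate 2 held a region there at 17.4, and the list of replicate 1, with 25978 regions in all against 44551 in replicate 2, held none. The same replicate 2 region also reached a relaxed region 111 bp downstream of the 5′ end, with a signal of 9.41. Of the optimal regions, 0.814% had a lower signal than the promoter region of Tfeb. Conversely, a region 583 bp downstream of the 5′ end, 311 bp upstream of the second start, had a signal of 14.5 and was found in replicate 1 alone, at 9.01. Of 23 relaxed regions at Tfeb, 9 were found in 1 replicate, 14 in neither and 0 in both. A region outside the distance rule, 5202 bp past the 3′ end of the gene, was found in both replicates, with signals of 26.6 in the relaxed list, 9.34 in replicate 1 and 18.3 in replicate 2, but was not optimal.

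Tfe3 and Tfec had no reproducible region. Tfe3 acts beside TFEB on lysosome genes, and at its locus (mm10 chrX:7762530-7775202, plus strand) the relaxed list held 0 regions, as it did for 16.1% of all genes. On the X chromosome 52.5% of genes (496 of 944) had no relaxed region, against 14.4% on the other chromosomes, and among genes within 1.2-fold of the length of Tfe3 the share was 11.7%. The nearest relaxed summit was 17473 bp upstream of Tfe3, at 9.69. Tfec, a family member known mainly from macrophages and other myeloid cells, had 6 relaxed regions with signals of 5.60 to 8.17, all in neither replicate's list (mm10 chr6:16830927-16898464, minus strand). The optimal summit nearest to Tfec was 738.6 kb away.

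The relaxed list taken alone did not separate the genes: 6 of 7 had a relaxed summit, against 83.9% of all genes, and the same 6 had one within 1 kb of a start, against 58.5%. Requiring the region in both replicates left Usf2, Usf3 and Mitf, against 36.6% of all genes, each within 1 kb of a start, against 20.9%. Of the 103 relaxed regions at the 7 genes, 5 were found in both replicates and 3 of these were optimal.

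All 3 optimal regions at the family were found in both replicates, as were 99.3% of optimal regions (8054 of 8108). The log2 ratio of the signal in replicate 2 over replicate 1 was 0.29 at Usf2, 0.75 at the Mitf promoter and 0.37 at the upstream Mitf region. Over the optimal regions its median was 0.18 with an SD of 0.50, and the range between the 5th and 95th percentiles was -0.67 to 1.03, so each of the 3 lay inside the spread of the list. The second Usf2 region, with 8.22 in replicate 1 and 21.7 in replicate 2, had a ratio above the 95th percentile. It is not one of the optimal regions that set this percentile, and its replicate 1 signal was near the lowest of that list, 7.38. The Usf3 region, also not optimal, had a ratio of 0.21, near the median of the optimal list. The spread between the replicates has no test here, since 1 group of 2 allows none.

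**Figure D2:**
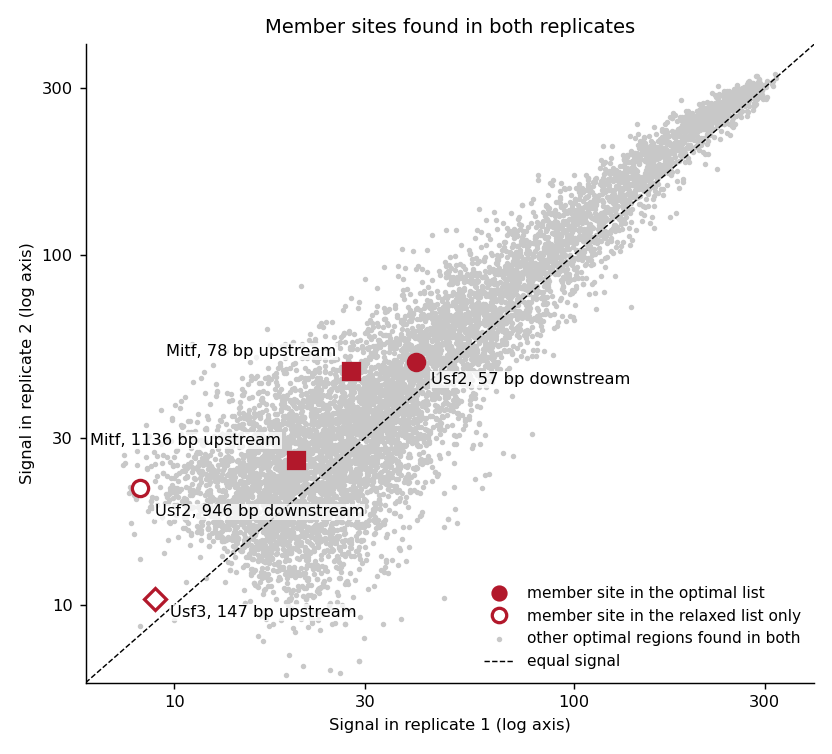
Signal in replicate 2 (vertical log axis) against replicate 1 (horizontal log axis), the authors' scale, for the member sites found in both replicates; filled red symbols are in the optimal list, open ones in the relaxed list only, grey points are the other optimal regions and the dashed line marks equal signal. The Usf2 region 946 bp downstream has 8.22 in replicate 1, near the lowest signal of that list, and 21.7 in replicate 2. The Usf3 region is the lowest in replicate 2 at 10.4.

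CACGTG was absent from all 4 mm9 peaks at the family. Within 50 bases of the summit, the strongest Usf2 peak held CACATG only, with its middle 22.5 bases from the summit, the upstream Mitf peak held CACATG only at 28.5 bases, and the second Usf2 peak and the Mitf promoter peak held neither. Among all mm9 peaks, 53.3% held CACGTG, 30.1% CACATG only and 16.6% neither. Peaks within 1 kb of a start held the classes in 56.6%, 13.3% and 30.1% (n = 3239), with median signals of 194.8, 74.5 and 48.2. Against the median of its own proximal class, the strongest Usf2 peak, at 120.0, was above 74.5. In the class with neither E-box, the Mitf promoter peak, at 81.5, was above 48.2. The second Usf2 peak, 99 bp from a start and in that same class, was below it at 32.3. With 100 bases on each side, CACGTG was still in 0 of the 4. The narrower window of 25 bases could not add a copy, and in it the upstream Mitf peak held neither E-box. Of the genes called in mm9, 57.1% had CACGTG at their strongest peak (3351 of 5868). The family had it at 0 of 2, and with 2 genes nothing is read from this count.

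The family's genes do hold CACGTG, but the copies lay away from USF1 summits. In mm9, 64 copies lay in the 7 genes or within 5 kb of a start: 2 at Usf1, 3 at Usf2, 11 at Usf3, 27 at Mitf, 2 at Tfe3, 8 at Tfeb and 11 at Tfec. None of the 64 had an mm9 summit within 50 bp, beside 2.29% of all copies on the same chromosomes (6007 of 262836). Read against that share, a count of 0 is close to the background. Among genes with at least 1 such copy, 19.4% had a summit at one (3685 of 19015).

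The 4 copies within 1 kb of a family start are shown because they are the nearest candidates for an E-box site, and none had a summit. They are from mm9, on the gene's strand, with CACGTG in capitals, at chr1:173347214-173347243 (Usf1), chr16:44218610-44218639 (Usf3), chr17:47872983-47873012 and chr17:47923320-47923349 (Tfeb).
Usf1: gctgggttttagCACGTGagttttagtaat
Usf3: tacaacatctaaCACGTGtgatggctgcac
Tfeb, upstream of the gene: tttaaggccaagCACGTGaaccctggagtg
Tfeb, inside the gene: aagtttgctgccCACGTGagcccagcccaa
The first Tfeb copy lay 981.5 bp upstream of the gene, the Usf1 copy 232.5 bp upstream of a start inside its gene, the Usf3 copy 397.5 bp and the second Tfeb copy 230.5 bp downstream of internal starts. Over all protein-coding genes, 15.5% of copies within 1 kb of a start had a summit (1974 of 12728). With its neighbouring bases the second Tfeb copy reads CCACGTGA, the most frequent form among the 5672 copies at mm9 summits (27.7%). The Usf1 copy and the first Tfeb copy read GCACGTGA (8.99%), and the Usf3 copy reads ACACGTGT (1.13%).

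**Figure D3:**
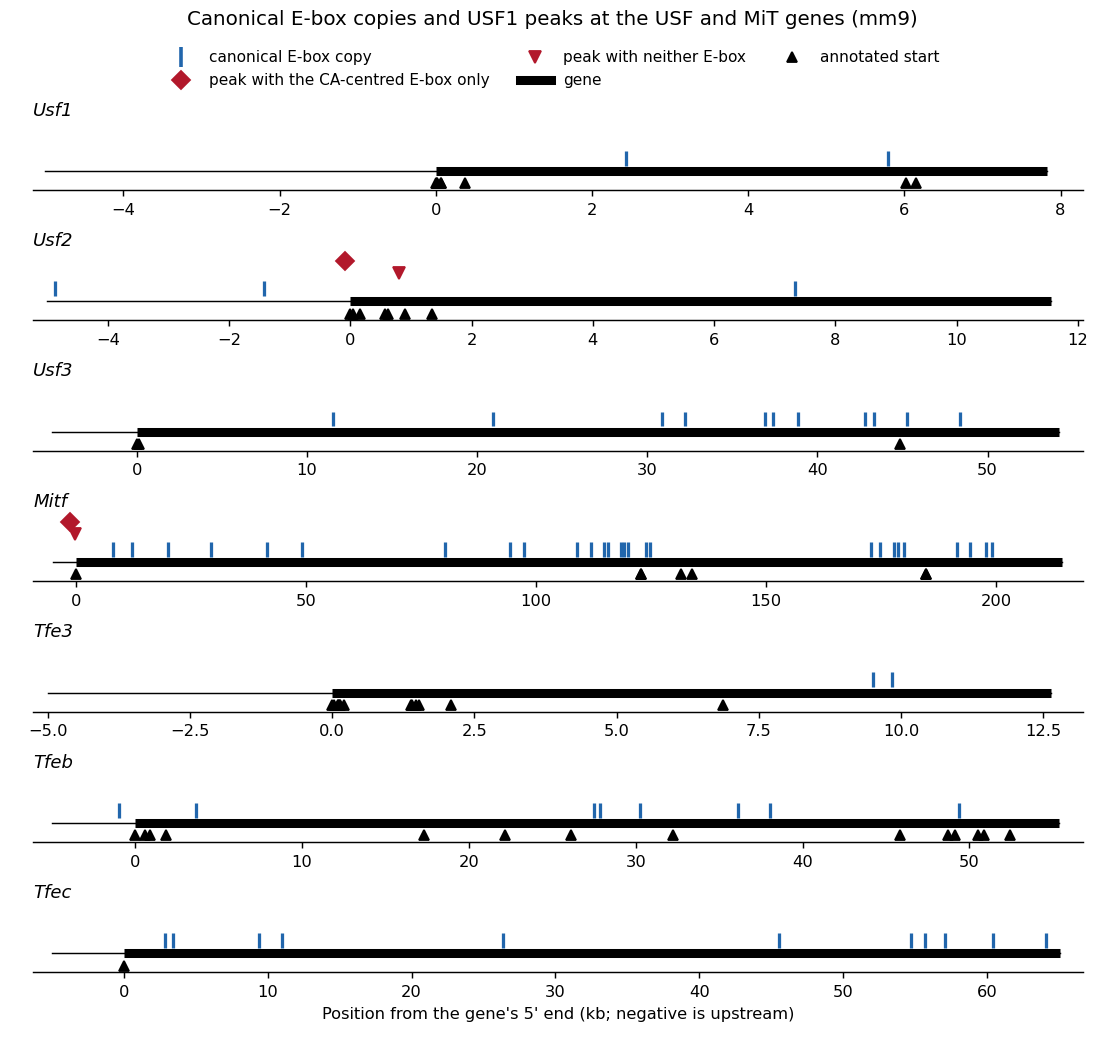
CACGTG copies (blue bars) and mm9 USF1 peak summits (red symbols) along each gene in mm9, with position from the gene's 5′ end in kb (negative is upstream) and annotated starts as triangles. The 4 peaks, 2 at Usf2 and 2 at Mitf, lie near the 5′ ends, and none coincides with one of the 64 copies.

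RefSeq promoter sequences, 250 bases before to 50 after a start, were matched for 6 of the 7 genes, all but Usf2. All 12 windows of these 6 genes held neither CACGTG nor CACATG, as did 79.5% of all 32619 promoter windows, while 7.2% held CACGTG and 13.4% CACATG only. The string ACTACANNTCCC, known as part of the binding site of the zinc finger protein ZNF143, was in the Mitf and Tfeb windows printed above. Its middle was 3.5 bases from the Mitf summit and 20.5 bases from the Tfeb summit. It occurred in 0.941% of all mm9 peaks, the count by which it was chosen, so this share supports nothing. Windows of the same length 500 bp from these peaks held it in 0.0377%, a comparison open to the same choice. In all RefSeq promoter windows the share was 1.82%, but these hold 300 bases against 101 at a peak, so the shares are not alike. The Mitf window also held CACGTT, an E-box variant found in 4.11% of mm9 peaks within 1 kb of a start that held neither E-box (40 of 974) and in 2.52% of windows of the same length 500 bp from them. CACGTT was in 1.88% of all mm9 peaks, in 1.65% of windows 500 bp from these, and in 4.72% of the longer RefSeq promoter windows. These matches describe the letters in the windows and carry no test.

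A list of 13 genes that MiT proteins are described to switch on, mostly of lysosomes and autophagy, was chosen with earlier results of these data known. Its counts and signals are therefore a description and no test. Of these 13, 12 had an optimal summit (92.3%) and 11 had one within 1 kb (84.6%), beside 22.8% and 12.6% of all genes, while 1 of 4 MiT genes had one by either rule. The strongest regions of the 12 called genes had a median signal of 349, beside 101.5 over the 4841 genes called in all. The highest signals were 506 at Uvrag (autophagosome maturation), 480 at Atp6v0d1 (a proton pump subunit), 474 at Gla and 455 at Hexa (both lysosomal hydrolases), each from 9 to 310 bp from a start. Gpnmb, a lysosomal glycoprotein gene, was the 1 not called. The Mitf promoter region, at 75.0, was lower than the strongest region of each of the 12 called genes. In mm9, 8 of the 11 called genes had CACGTG at their strongest peak (72.7%), beside 57.1% of all genes called in mm9.

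Of 16 genes for the phosphorylation, calcineurin and export steps that move MiT proteins, 10 were called (62.5%) and 7 within 1 kb (43.8%). The shares over all genes were 22.8% and 12.6%. The median signal at the 10 was 184, beside 101.5 over all called genes. This list was also chosen with earlier results of these data known. Mcoln1, the lysosomal calcium channel that activates calcineurin, had a signal of 582 with its summit 52 bp upstream of a start. Rragc, a Rag GTPase, had 566, Ppp3r1, the calcineurin regulatory subunit, had 391, and Xpo1, the nuclear exporter, had 389 at 1049 bp from a start. Fnip2, Rraga, Rragd, Mtor, Ppp3cb and Akt1 had no optimal summit, though Rragd had an mm9 peak at 46.6. In the same list Flcn, which encodes folliculin, had 109.9 and its partner Fnip1 had 206.

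The remaining lists were also chosen with earlier results known, and their counts stand beside 22.8% of all genes called and 12.6% within 1 kb. Of 10 pigment cell genes that MITF switches on, 5 were called (50%) and 2 within 1 kb (20%), with a median signal of 88.5 at the 5. Their highest values were low beside those of the lysosome genes: Trpm1 had 141 at 42315 bp from a start, Mlana 94.6 at 9970 bp, Mc1r 88.5 at 37 bp and Pmel 82.5 at 698 bp. Of 5 osteoclast genes, 2 were called by either rule (40%), Clcn7 at 547 and Ostm1 at 305, which encode a lysosomal chloride transporter and its partner. Acp5, Ctsk and Oscar had no optimal summit. Of 16 other bHLH-ZIP genes, 9 were called (56.2%) and 7 within 1 kb, with a median signal of 245 at the 9, led by Srebf1 at 581, Mlx at 529, Max at 411 and Mxi1 at 325. In mm9 all 8 called bHLH-ZIP genes had CACGTG at their strongest peak, beside 57.1% of all genes called in mm9. That count was 7 of 11 for the MiT control genes, 2 of 5 for the pigment cell genes and 1 of 3 for the osteoclast genes. For the modifiers and partners of USF1 it was 1 of 2. Across the lists, the genes called in mm9 were not quite those called in mm10. Rragd, Acp5 (30.7) and Setd7 (36.1) had an mm9 peak without an optimal summit, and Ppargc1a and Mxd4 had the reverse. Of 6 genes for modifiers and partners of USF1, 1 was called (16.7%) and 0 within 1 kb, a share near that over all genes: Kat2b, an acetyltransferase gene, at 46.8 and 1951 bp from a start.

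**Figure D4:**
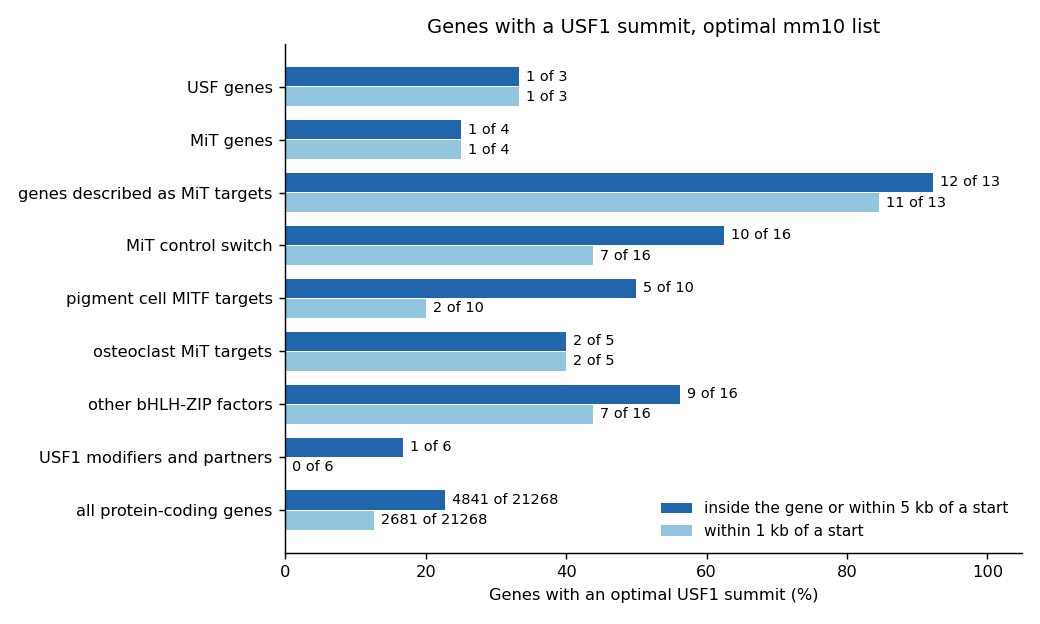
Share of genes with an optimal USF1 summit (horizontal axis, %) inside the gene or within 5 kb of a start (dark bars) and within 1 kb of a start (light bars), with the counts beside the bars. The USF genes (1 of 3) and MiT genes (1 of 4) are shown above the lists of related genes, of which the described MiT targets are highest (12 of 13), and all protein-coding genes are at the bottom (4841 of 21268). The lists were chosen with earlier results of these data known, so their order carries no test.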

How the data were processed

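The files hold USF1 ChIP-seq regions of CH12.LX cells from 2 replicates. Per the deposited readme texts, relaxed lists of peaks and background were made for each replicate and for both together on mm10, optimal and conservative lists were derived from them by IDR, and peaks were also made on mm9. The sources used here do not name the aligner, the peak caller, the thresholds or the signal's scale. The signal of each region is the authors' deposited value and was used to describe and rank regions within a list. Read depth is unknown, so no counting error could be given.

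Coordinates are 1-based and no position was converted between builds. RefSeq genes of GRCm38.p6 were used for mm10, with 414 of 21900 genes left out for lack of a strand, and Gencode vM1 with the NCBIM37 genome for mm9. Usf3, Tfe3, Tfeb and Tfec are listed there under older symbols. A region was found in a replicate when it overlapped a region of that replicate's own list by at least 1 bp. E-boxes were searched on both strands within 50 bases of a summit. The 7 genes and the 6 gene lists were chosen with earlier results of these data known, and the 4 called genes of highest signal per list are named, with others named after their values were seen. There is 1 group, so no test between groups was made. Counting was tested on simulated data. Python 3.11.15, numpy 2.4.6, pandas 2.3.3 and matplotlib 3.10.9 were used.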

Additional observations from a re-analysis of the deposited data

How the results depend on the processing

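Of 56 alternative settings over the counts for the 7 genes, their summits, their replicate overlap, their E-box classes and the related gene lists, 50 were within 1.5 times the reported count. For the count of 0 peaks with CACGTG, the 25-base window and the peaks at or above the median signal could not have moved it. The relaxed list moved the family's counts to 6 genes, 6 genes within 1 kb and 103 summits. Relaxed regions found in both replicates, an alternative chosen after seeing the data, gave 3 genes, 3 within 1 kb and 5 summits. The 1 kb rule moved the pigment cell list to 2 genes and the USF1 modifiers and partners to 0. Without replicate 1 or without replicate 2, taking as many of the strongest regions of the remaining list as the optimal list holds, 2 genes were called by either rule, with 3 to 4 summits. Over the same settings, also added after seeing the data for the lists, 9 to 11 genes of the MiT control list, 12 of the MiT targets, 4 to 5 of the pigment cell genes, 2 of the osteoclast genes, 9 to 10 other bHLH-ZIP genes and 1 partner gene were called. No paired analysis was possible because all samples form 1 group. The pooled lists give no independent value per replicate, and since the depth is unknown, its part in a weak region found in 1 replicate, such as the one at Tfeb, was not tested.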
